A study of Mus musculus with 6 samples.

Results

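The 9 genes described here, Rrm1, Rrm2, Tyms, Impdh2, Ada, Dck, Samhd1, Nt5c2 and Fpgs, encode enzymes that make, salvage or break down nucleotides and that are the targets or handlers of antimetabolite drugs used against leukemia. They were found by gene name among the 54532 genes of the deposited table, each occurred once, and all 9 were among the 13393 genes with 1 FPKM or more (fragments scaled by gene length and library size, the deposited unit) in 3 or more of the 6 libraries. RNA came from the bone marrow (BM) of C57BL/6 mice, 100 days after they received transplanted cells. In both groups, lineage-negative donor cells had received a retrovirus with GFP and JAK3 M511I, a mutant that makes this Janus kinase active, to model T-ALL (acute lymphoblastic leukemia of T cells). The 3 control libraries, WT 1 to WT 3, came from Phf6 fl/y donor cells, in which the floxed allele is intact. The other 3, KO 1 to KO 3, came from Vav1-Cre;Phf6 fl/y donor cells, in which Cre under the Vav1 promoter removes exons 4 to 5 of Phf6, a chromatin-related gene, in blood-forming cells from the embryo on. Donors and recipients were males of 8 weeks. The genotype labels number the gene Phf6, Phf7 and Phf8 from replicate to replicate, and it was read as Phf6 throughout because the design text of the series names only Phf6. Nothing in the labels says that leukemic cells were sorted before RNA was taken, so host cells of the recipient can be in the libraries, nor that the replicates came from separate mice. P-values therefore measure the spread between these samples, which may be technical.

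Cells obtain deoxynucleotides for DNA along 2 routes. In the first, ribonucleotide reductase converts ribonucleotides into deoxynucleotides and thymidylate synthase supplies thymidylate. In the second, salvage kinases phosphorylate deoxynucleosides taken up from outside, and phosphatases and triphosphohydrolases remove what is in excess. Drugs of acute lymphoblastic leukemia enter the same reactions: deoxycytidine kinase activates cytarabine, thiopurines are built up by salvage enzymes and taken apart by nucleotidases, and methotrexate is held in the cell by the glutamate tail that folylpolyglutamate synthase adds.

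Recovered reads per library were between 13015823 and 18235095. WT 2 stood apart: genes under 1000 bases took 17.1% of its reads and ribosomal protein genes 21.2%, against 5.01% and 6.75% at most in the other 5 libraries, and the 10 erythroid markers summed to 61942 FPKM in WT 2 against 537 at most elsewhere. The 10 B-cell markers summed to 1110 FPKM in WT 2, 14.9 in WT 1, 21.3 in WT 3 and 2.20 to 2.79 in the KO-labelled libraries. The 9 genes and the counts of each list are therefore given with and without WT 2, and for other named genes the value without WT 2 is given where it changes the call. Phf6 itself did not separate the groups: WT 1, WT 2 and WT 3 had 7.47, 3.67 and 8.02 FPKM, and KO 1, KO 2 and KO 3 had 6.73, 5.50 and 5.11 (log2 fold change -0.073, limma, adjusted p = 0.893; -0.37 without WT 2, adjusted p = 0.0992). The gene-level value includes exons outside the deletion and does not check the labels. All 12 T-cell markers were above the filter, and Cd3e, a chain of the T-cell receptor complex, lay between 22.6 and 60.0 FPKM. Of the 12, Cd4 rose, from 2.16 to 81.4 FPKM (limma, adjusted p = 0.000415), and Trac, the constant part of the receptor alpha chain, fell from 238 to 21.5 FPKM (limma, adjusted p = 0.00596), as did Cd5 (limma, adjusted p = 0.0200). Without WT 2, Cd4, Lck and Cd3g were called higher, and Trac, Cd5, Cd2, Cd28 and Cd8b1 lower. Every fold change below is KO minus WT on the log2(FPKM + 1) scale, which understates changes of low genes, and is called at an adjusted p under 0.05 by limma (Benjamini-Hochberg over all genes tested, n = 3 a group).

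Dck and Rrm1 were higher and Samhd1 was lower in the KO-labelled libraries, and the other 6 genes did not pass the test. So 2 of 9 genes (22.2%) were called higher and 1 (11.1%) lower, against 13.1% and 13.3% of all genes tested and 26.4% in either direction. With 9 genes, a share this close to the background is no result about the set, and the genes are described one by one. The median log2 fold change of the 9 was 0.76 beside 0.086 over all genes. Without WT 2, 6 were called higher and 1 lower, in a fit that called 26.8% of all genes higher and 25.3% lower. The groups did not overlap in 5 genes: Dck, Rrm1, Rrm2 and Nt5c2 were higher in every KO-labelled library than in any WT-labelled one, and Samhd1 was lower, against 26.2% of all genes tested that did not overlap and were higher and 22.9% that were lower. The deposited values carry a scaling factor chosen by the authors. Rescaling each library to TPM moved the median of the 13393 genes by 0.77 on the log2 scale and gave 6 genes higher and 1 lower, in a fit that called 17.7% of all genes higher and 8.08% lower.

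**Figure D1:**
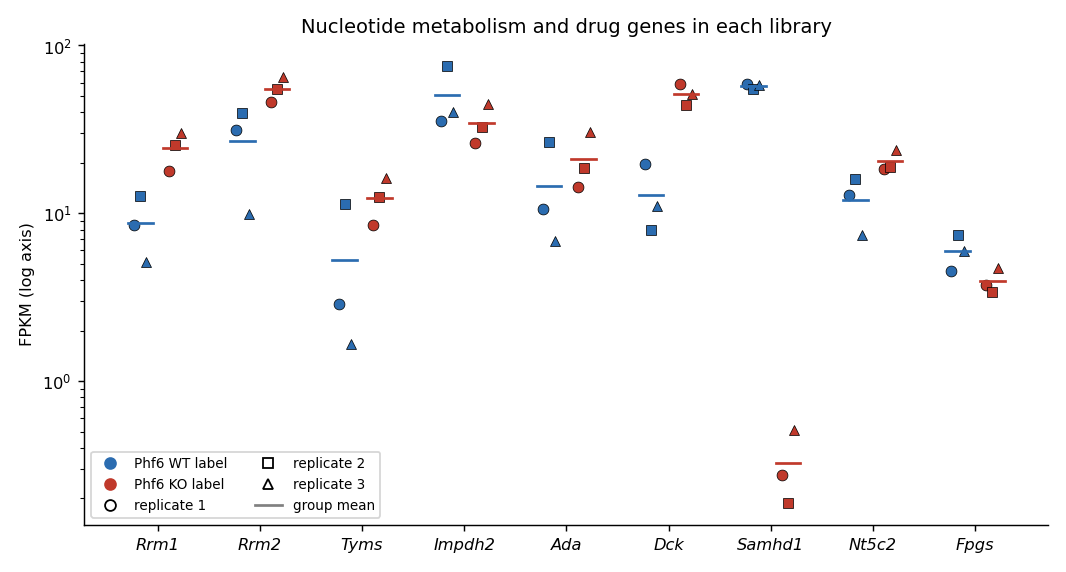
FPKM of each gene on a log axis in the 3 WT-labelled (blue) and 3 KO-labelled (red) libraries, with the replicate number as the symbol and a bar at the group mean. Samhd1 lay between 55.3 and 59.0 FPKM in the WT-labelled and between 0.187 and 0.509 in the KO-labelled libraries, while the spread among the WT-labelled libraries was widest for Tyms, from 1.66 to 11.3.

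Samhd1 and Dck act in opposite directions on the deoxynucleotide pool, and they are the only 2 of the 9 genes that passed the test under all 19 other settings tried at this threshold. Among these settings, median-of-ratios scaling left the values unchanged. The sequence before the start of each is shown here because these 2 genes differed most between the groups. It comes from the RefSeq promoter windows of the mouse genome (GRCm38.p6), 5′ to 3′, without the bases that lie inside the gene as the deposited table places it. CG dinucleotides, the sites of DNA methylation, are in capitals.
Samhd1, chr2:157135266-157135346, minus strand: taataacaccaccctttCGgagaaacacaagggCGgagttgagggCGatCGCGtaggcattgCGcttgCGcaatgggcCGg
Dck, chr5:88764763-88764995, plus strand: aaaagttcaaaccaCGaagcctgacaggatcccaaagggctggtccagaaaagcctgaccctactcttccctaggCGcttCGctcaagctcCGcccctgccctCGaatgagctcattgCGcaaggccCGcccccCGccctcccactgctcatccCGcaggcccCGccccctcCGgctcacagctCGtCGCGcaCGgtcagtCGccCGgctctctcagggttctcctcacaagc
In the full window of 250 bases before the RefSeq start, Samhd1 held 26 CG dinucleotides and Dck 18, against a median of 6 over all 32851 windows. Windows with at least as many made up 9.59% of all for Samhd1 and 21.7% for Dck. Methylation was not measured in these libraries.

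Samhd1 (ENSMUSG00000027639, chromosome 2, 157097533 to 157135265, minus strand, GRCm38) encodes the triphosphohydrolase that breaks down deoxynucleoside triphosphates and also the active form of cytarabine. WT 1, WT 2 and WT 3 had 59.0, 55.3 and 58.4 FPKM, from 8337, 5951 and 8284 reads. KO 1, KO 2 and KO 3 had 0.276, 0.187 and 0.509 FPKM, from 47, 27 and 75 reads. On the deposited scaling the WT-labelled libraries lay within 1.07-fold of each other, and they lay far above all 3 KO-labelled ones. The means, 57.6 ± 1.99 and 0.324 ± 0.166 (SD, n = 3), differed 178-fold, and the log2 fold change was -5.47 with an SE of 0.22 (limma, adjusted p = 0.000223). By the size of the fold change Samhd1 ranked 83 of 13393 genes. Without WT 2 the log2 fold change was -5.50 (limma, adjusted p = 3.44e-05).

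Samhd1 is abundant in myeloid cells, and markers of such cells also differed between the groups. In bulk RNA, fewer cells of a type and less RNA per cell cannot be told apart. All 12 neutrophil markers fell, with and without WT 2, with a median log2 fold change of -6.70, and 6 of the 10 monocyte and macrophage markers tested fell and none rose (8 fell without WT 2). Over all genes, 13.3% fell, and 25.3% without WT 2. The summed neutrophil markers ranged from 6909 to 95561 FPKM in the WT-labelled and from 94.3 to 292 in the KO-labelled libraries. For monocytes and macrophages the sums were 380 to 4792 and 20.7 to 28.1. On the deposited scaling, these sums differed 13.8-fold and 12.6-fold among the WT-labelled libraries, and Samhd1 differed 1.07-fold. All FPKM of WT 2 summed to 897352, against 329893 in WT 1 and 305933 in WT 3. The 3 spreads therefore depend on how WT 2 is scaled. Of the 7 NK cell markers tested, 6 fell and 1, Gzma, rose, with and without WT 2. The 6 that fell summed to 725 to 1248 FPKM in the WT-labelled and 14.6 to 33.1 in the KO-labelled libraries, and Gzma had 12.9 to 50.8 and 566 to 615 FPKM. The part of these cells in the Samhd1 difference was not tested.

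**Figure D2:**
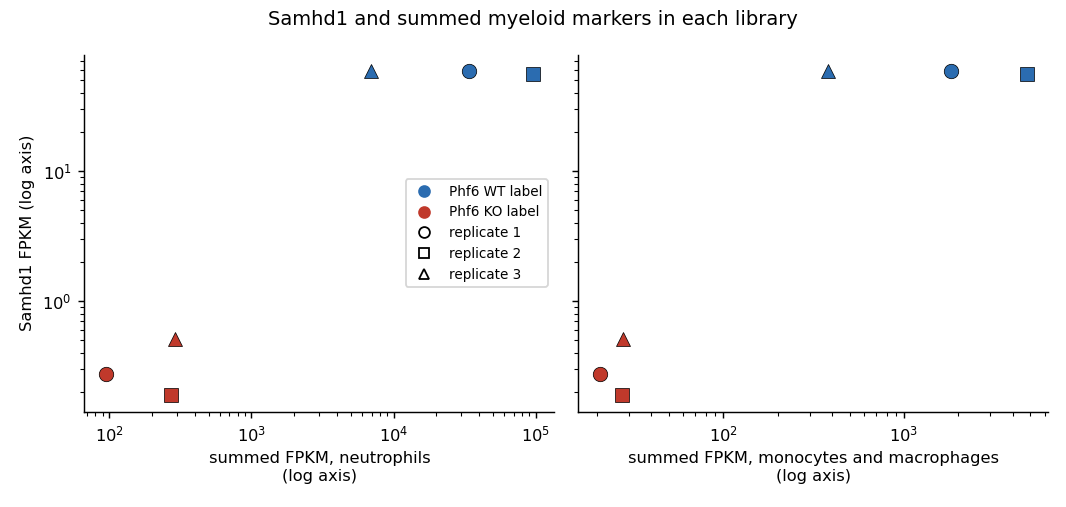
Samhd1 FPKM against the summed FPKM of the neutrophil markers (left) and of the monocyte and macrophage markers (right), 1 point a library, all axes logarithmic, WT-labelled in blue and KO-labelled in red. On the deposited scaling, the marker sums of the WT-labelled points spread 13.8-fold and 12.6-fold and their Samhd1 lay between 55.3 and 59.0 FPKM. The KO-labelled points are low on both axes. The part of these cells in the Samhd1 difference was not tested.

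Dck (ENSMUSG00000029366, chromosome 5, 88764996 to 88783281, plus strand) encodes deoxycytidine kinase, the first step of deoxycytidine salvage and of the activation of cytarabine, cladribine and fludarabine. WT 1, WT 2 and WT 3 had 19.8, 7.92 and 11.0 FPKM, and KO 1, KO 2 and KO 3 had 58.7, 44.4 and 51.5. The lowest KO-labelled library was above the highest WT-labelled one. The means, 12.9 ± 6.14 and 51.5 ± 7.14 (SD, n = 3), differed 3.99-fold, and the log2 fold change was 2.0 with an SE of 0.36 (limma, adjusted p = 0.00835). Without WT 2 it was 1.72 (limma, adjusted p = 0.00316). The ratio of Dck to Samhd1 within a library, which no scaling of the library can change, was 0.143 to 0.335 in the WT-labelled and 101 to 237 in the KO-labelled libraries.

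Of the other deoxynucleoside kinases, Tk2 fell, and Dguok and Tk1 did not pass the test. Tk2, the mitochondrial thymidine kinase, fell from 15.8 ± 3.42 to 6.09 ± 0.190 FPKM (SD, n = 3; log2 fold change -1.22, limma, adjusted p = 0.0136), a call lost without KO 1, KO 2 or KO 3 (adjusted p at most 0.0723) and under TPM. Dguok, the mitochondrial deoxyguanosine kinase, had 8.75, 14.4 and 11.5 FPKM in the WT-labelled and 7.08, 6.90 and 8.23 in the KO-labelled libraries (limma, adjusted p = 0.170). Tk1, the cytosolic thymidine kinase of S phase, had 7.79, 17.1 and 6.38 against 13.6, 14.5 and 18.2 FPKM (limma, adjusted p = 0.284). Without WT 2 the log2 fold change of Tk1 was 1.02 (limma, adjusted p = 0.00519). The ratio of Dck to Tk2 was 0.464 to 1.66 in the WT-labelled and 7.54 to 9.56 in the KO-labelled libraries, and that of Dck to Dguok 0.550 to 2.26 and 6.26 to 8.29. Slc29a1, an equilibrative transporter that carries nucleosides and cytarabine into the cell, had 7.55, 24.2 and 7.26 against 38.1, 37.3 and 49.3 FPKM. Its log2 fold change was 1.80 (limma, adjusted p = 0.0327), and the call was lost without any 1 library other than WT 2 (adjusted p at most 0.123). Cda, the cytidine deaminase that inactivates cytarabine, was listed at 0 in all 6 libraries.

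Ribonucleotide reductase is built from a large subunit, Rrm1, and a small subunit, Rrm2, which is made in S phase. Both were higher in every KO-labelled than in any WT-labelled library, but only Rrm1 passed the test. The sequence before the start of each is shown because the pair codes for 1 enzyme. Capitals mark CCAAT, the word bound by the factor NF-Y, searched on both strands as CCAAT and ATTGG.
Rrm1, chr7:102441445-102441694, plus strand: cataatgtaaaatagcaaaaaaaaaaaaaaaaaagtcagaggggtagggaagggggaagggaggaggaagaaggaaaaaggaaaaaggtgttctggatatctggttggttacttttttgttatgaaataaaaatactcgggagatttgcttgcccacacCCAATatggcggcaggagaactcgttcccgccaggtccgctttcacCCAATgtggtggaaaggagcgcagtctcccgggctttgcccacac
Rrm2, chr12:24708004-24708240, plus strand: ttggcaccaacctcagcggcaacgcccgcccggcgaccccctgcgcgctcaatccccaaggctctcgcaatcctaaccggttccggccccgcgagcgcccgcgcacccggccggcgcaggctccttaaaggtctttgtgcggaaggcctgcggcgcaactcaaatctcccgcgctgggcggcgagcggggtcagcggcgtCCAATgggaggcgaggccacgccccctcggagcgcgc
The words start 91 and 45 bases before the RefSeq start of Rrm1 and 50 bases before that of Rrm2. A CCAAT word on either strand occurred in 33.9% of all windows of 250 bases, and of the 9 genes also in the windows of Ada and Fpgs and in 1 of the 7 windows of Nt5c2. The E2F words TTTCCCGC, TTTCGCGC, TTTGCCGC and TTTGGCGC occurred on either strand in 1.86% of all windows and in none of the windows of the 9 genes, so that no CCAAT word overlapped one there. Only these letters were searched.

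Rrm1 (ENSMUSG00000030978, chromosome 7, 102441695 to 102469771, plus strand) had 8.55, 12.7 and 5.10 FPKM in WT 1, WT 2 and WT 3 and 17.9, 25.5 and 30.0 FPKM in KO 1, KO 2 and KO 3. The means were 8.78 ± 3.81 and 24.5 ± 6.08 FPKM (SD, n = 3), 2.78-fold apart, and the log2 fold change was 1.43 with an SE of 0.37 (limma, adjusted p = 0.0319). The call was lost without WT 1 (limma, adjusted p = 0.0816), WT 3 (0.0684), KO 1 (0.0621), KO 2 (0.122) or KO 3 (0.128). In those fits the log2 fold change was 1.12 to 1.63, and 7.0% to 11.1% of all genes were called higher, against 13.1% with all 6 libraries. Without WT 2 the log2 fold change was 1.71 (limma, adjusted p = 0.00446). The call was also lost when the trend of each library with gene length was removed (log2 fold change 1.14, limma, adjusted p = 0.166). The same held when genes of low values were kept in the test. A predicted gene, Gm45399, shares 1016 bases with Rrm1 on the same strand and had at most 1.47 FPKM.

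Rrm2 (ENSMUSG00000020649, chromosome 12, 24708241 to 24714146, plus strand) had 31.5, 39.6 and 9.92 FPKM in the WT-labelled and 46.1, 55.3 and 64.7 FPKM in the KO-labelled libraries. WT 3 was low, and the gap between WT 2 and KO 1 was small. The log2 fold change was 1.20 with an SE of 0.52 (limma, adjusted p = 0.144), and without WT 2 it was 1.57 (limma, adjusted p = 0.0299). The ratio of Rrm2 to Rrm1 overlapped between the groups, at 1.95 to 3.69 in the WT-labelled and 2.16 to 2.57 in the KO-labelled libraries. Rrm2b, the small subunit used outside S phase, was level at 3.91, 2.27 and 4.07 against 3.31, 3.86 and 3.86 FPKM (log2 fold change 0.11, limma, adjusted p = 0.802). A processed pseudogene of Rrm2, Gm48455, was listed at 0 in all libraries.

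Tyms (ENSMUSG00000025747, chromosome 5, 30058202 to 30073617, minus strand) encodes thymidylate synthase, the target of fluorouracil and of antifolates. It had 2.88, 11.3 and 1.66 FPKM in WT 1, WT 2 and WT 3 and 8.54, 12.5 and 16.1 FPKM in KO 1, KO 2 and KO 3. WT 2 lay inside the KO-labelled range, and the other WT-labelled libraries lay below it. The log2 fold change was 1.37 with an SE of 0.59 (limma, adjusted p = 0.145), and without WT 2 it was 2.02 with an SE of 0.30 (limma, adjusted p = 0.00299).

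Proliferation markers also differed between the groups. Of 12 such markers, 6 rose (50%, against 13.1% of all genes) and none fell. Without WT 2, 11 rose, where 26.8% of all genes were called higher. The median log2 fold change of the markers was 1.49. Their sum was 233, 329 and 157 FPKM in WT 1, WT 2 and WT 3 and 409, 557 and 623 FPKM in KO 1, KO 2 and KO 3. Rrm1 and Rrm2 put the 6 libraries in the same order as this sum, from WT 3 to KO 3. Tyms did not, with 11.3 FPKM in WT 2 and 8.54 in KO 1. Every gene without overlap that is higher in the KO-labelled libraries shares the part of this order that lies between the groups. Per 100 FPKM of these markers, a measure added after the values were seen, Rrm1 came to 3.26 to 3.86 FPKM in the WT-labelled and 4.39 to 4.81 in the KO-labelled libraries. Rrm2 came to 6.34 to 13.5 and 9.92 to 11.3, and Tyms to 1.06 to 3.44 and 2.09 to 2.59, so that these 2 overlapped between the groups. Dck came to 2.41 to 8.47 and 7.97 to 14.4, which also overlap. The part of proliferation in these differences was not tested.

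**Figure D3:**
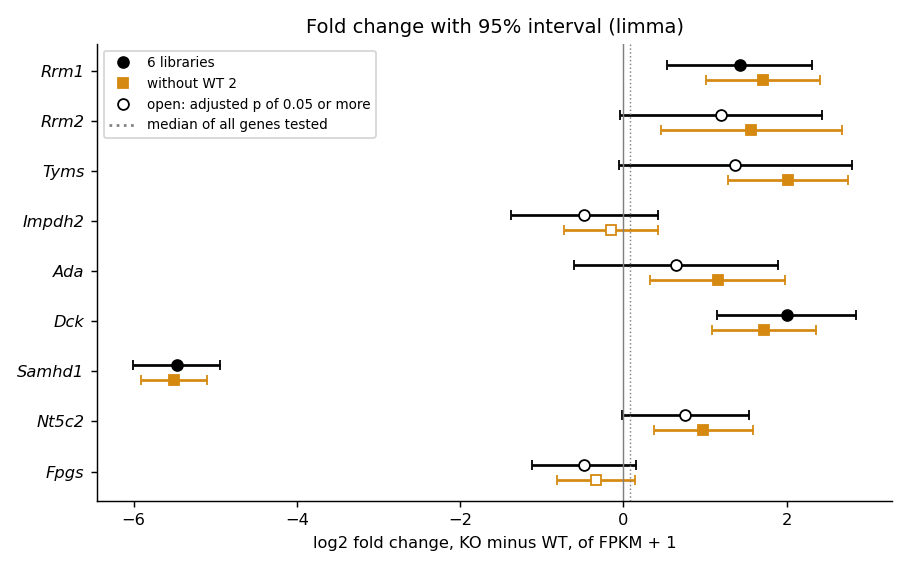
Log2 fold change of each gene, KO minus WT, with its 95% interval from limma over all 6 libraries (black circles) and without WT 2 (orange squares); filled symbols have an adjusted p under 0.05, and the dotted line is the median of all genes tested, 0.086. Samhd1, Dck and Rrm1 are filled with all libraries, and Rrm2, Tyms, Ada and Nt5c2 are filled only without WT 2.

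Nt5c2 (ENSMUSG00000025041, chromosome 19, 46886831 to 47015153, minus strand) encodes a cytosolic nucleotidase that dephosphorylates purine monophosphates, thiopurine nucleotides among them, and is known for activating mutations in relapsed T-ALL. It had 12.8, 16.0 and 7.40 FPKM in the WT-labelled and 18.2, 18.9 and 24.0 FPKM in the KO-labelled libraries, without overlap. The means differed 1.69-fold, and the log2 fold change was 0.76 with an SE of 0.32 (limma, adjusted p = 0.140). Without WT 2 it was 0.98 (limma, adjusted p = 0.0193). Only RNA levels were read here, and the gene length in the deposited table, 4475 bases, was shorter than the 11037 bases of the exons in GENCODE M21, so the level of Nt5c2 is less comparable with those of the other genes. The ratio of Dck to Nt5c2 was 0.495 to 1.54 in the WT-labelled and 2.15 to 3.22 in the KO-labelled libraries. Among the thiopurine enzymes, Hprt, which makes the first thiopurine nucleotide, had 62.3, 55.4 and 58.7 against 54.3, 80.1 and 84.1 FPKM (limma, adjusted p = 0.508), and Tpmt, which methylates thiopurines, was under the filter with at most 0.647 FPKM.

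Ada (ENSMUSG00000017697, chromosome 2, 163726584 to 163750239, minus strand) encodes adenosine deaminase, whose loss is toxic to T cells and which pentostatin blocks. It had 10.5, 26.5 and 6.86 FPKM in the WT-labelled and 14.4, 18.7 and 30.5 FPKM in the KO-labelled libraries, and WT 2 lay within the KO-labelled range. The log2 fold change was 0.65 with a 95% interval of -0.60 to 1.90 (limma, adjusted p = 0.415), and without WT 2 it was 1.16 (limma, adjusted p = 0.0305). Pnp, the purine nucleoside phosphorylase that acts next on the products of Ada, lay on the other side: 5.44, 22.1 and 3.21 FPKM against 1.04, 1.69 and 2.26 FPKM, without overlap (log2 fold change -1.71, limma, adjusted p = 0.0980; without WT 2 -0.99, adjusted p = 0.0288). Pnp and its paralog Pnp2 are near-identical, so reads between them are uncertain.

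Impdh2 (ENSMUSG00000062867, chromosome 9, 108560286 to 108565584, plus strand) encodes the inosine monophosphate dehydrogenase of dividing lymphocytes, the rate-limiting step of guanine nucleotide synthesis and the target of mycophenolate. It had 35.2, 75.6 and 40.3 FPKM in the WT-labelled and 26.2, 32.8 and 44.9 FPKM in the KO-labelled libraries. The groups overlapped, and the log2 fold change was -0.48 with a 95% interval of -1.38 to 0.42 (limma, adjusted p = 0.403), -0.15 without WT 2 and 0.35 under TPM. These values are uncertain, because the pseudogene Impdh2-ps is 99.7% identical to Impdh2 over 1545 bases and had 20.7 to 48.2 FPKM. Impdh1, the other isoform, was level at 30.6, 34.2 and 38.4 against 39.2, 32.0 and 42.1 FPKM (log2 fold change 0.13, limma, adjusted p = 0.744).

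Fpgs (ENSMUSG00000009566, chromosome 2, 32682609 to 32704145, minus strand), which retains folates and methotrexate in the cell, had 4.50, 7.41 and 5.94 FPKM in the WT-labelled and 3.73, 3.37 and 4.72 FPKM in the KO-labelled libraries. WT 1 lay within the KO-labelled range, and the log2 fold change was -0.48 with a 95% interval of -1.12 to 0.16 (limma, adjusted p = 0.243), -0.33 without WT 2 and 0.24 under TPM. Ggh, the hydrolase that removes the glutamate tail which Fpgs adds, fell. It had 6.26, 15.3 and 6.34 FPKM in the WT-labelled libraries, from 190, 353 and 193 reads, and 0.109, 0.162 and 0.063 FPKM in the KO-labelled ones, from 4, 5 and 2 reads. The log2 fold change of Ggh was -3.10 with an SE of 0.36 (limma, adjusted p = 0.00177), and the call was kept without any 1 library. Most of the myeloid and NK cell markers above were also lower in the KO-labelled libraries, and their part in the Ggh difference was not tested. Slc19a1, the reduced folate carrier that brings methotrexate into the cell, had 4.56, 5.82 and 5.49 against 3.69, 4.13 and 4.52 FPKM (limma, adjusted p = 0.389).

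The order of the 9 genes by level differed between the groups. FPKM is per length, but the length used by the authors joins the exons of all isoforms and is 2.76 times the longest consensus coding transcript for Rrm1 and 2.33 times for Samhd1, which lowers their FPKM. In the WT-labelled libraries Samhd1 had the highest mean, 57.6, followed by Impdh2 at 50.4 ± 22.0, and Tyms the lowest, 5.29 ± 5.26 (SD, n = 3). The means of Ada, Dck and Nt5c2, 14.6, 12.9 and 12.1, were closer than their SDs. In the KO-labelled libraries Rrm2 at 55.4 ± 9.28 and Dck at 51.5 ± 7.14 led without differing beyond their spread, and Samhd1 was last at 0.324.

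By the root mean square distance between profiles of log2(FPKM + 1), each centred on its mean over the 6 libraries, the protein-coding gene nearest to Tyms was Dut, which removes dUTP and supplies dUMP for Tyms, at a distance of 0.13. The 3 genes nearest to Rrm1 were Nsl1 of the kinetochore and Mcm5 and Cdc6 of replication licensing, at 0.10, 0.10 and 0.11. Spc25, of the kinetochore, was nearest to Rrm2 (0.11), Ran to Ada (0.17) and Ywhae to Nt5c2 (0.083). Fkbp1a was nearest to Impdh2 (0.078) and Dguok to Fpgs (0.062). Dck was nearest to Magi3, Bmp2k and Rnf19a, at 0.12, 0.17 and 0.19, and none of these is a gene of nucleotide metabolism. Samhd1 had the farthest neighbours: Ly6c2, a surface protein of monocytes and memory T cells, at 0.25, Dusp1, a phosphatase, at 0.27, and Fasl, a death ligand of cytotoxic cells, at 0.31. Their FPKM ranged from 260.2 to 361, 143 to 220 and 34.2 to 72.6 in the WT-labelled libraries and did not exceed 5.69, 2.40 and 0.545 in the KO-labelled ones. The distances are a description over 6 libraries that share the same groups.

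The remaining genes of nucleotide and folate metabolism were read from 7 lists with 80 genes, of which 65 were tested. Of these, 11 rose (16.9%) and 14 fell (21.5%), and the median log2 fold change was 0.13, against 13.1%, 13.3% and 0.086 over all genes. Without WT 2 the counts were 22 and 17, where 26.8% of all genes were called higher and 25.3% lower. Under TPM, with 71 of the genes tested, they were 18 and 8, where 17.7% and 8.08% of all genes were called. Without KO 1, KO 2 or KO 3, between 3 and 6 rose and 6 or 7 fell, where 7.0% to 7.38% of all genes were called higher and 7.44% to 8.08% lower. Without WT 1 or WT 3, 6 rose and 11 or 12 fell. In these fits 9.24% and 11.1% of all genes were called higher and 10.3% and 12.4% lower.

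Over all genes, 13.1% were called higher and 13.3% lower, and 26.8% and 25.3% without WT 2. Purine synthesis had 3 of 12 genes higher and 1 lower, with a median log2 fold change of 0.86, and without WT 2 the counts were 7 and 1. Prps2, which makes the ribose phosphate donor, rose from 16.7 ± 3.92 to 104 ± 4.29 FPKM (SD, n = 3; log2 fold change 2.59, limma, adjusted p = 0.00114). Gmps, which makes guanosine monophosphate from the product of Impdh2, rose from 5.64 ± 0.10 to 12.4 ± 0.610 FPKM (limma, adjusted p = 0.0142), and Paics, outside the rule for named genes, was the third. Adssl1, the muscle-type adenylosuccinate synthase, fell, with 22.3, 38.7 and 7.04 against 2.13, 0.547 and 0.416 FPKM (limma, adjusted p = 0.0105). In pyrimidine synthesis 1 of 6 genes rose and 1 fell, with and without WT 2, and both were CTP synthases: Ctps rose from 7.82 ± 0.062 to 16.9 ± 4.16 FPKM (limma, adjusted p = 0.0337) and Ctps2 fell from 18.1 ± 4.22 to 7.49 ± 1.21 FPKM (limma, adjusted p = 0.0206), while Cad, the first enzyme of the pathway, did not pass (adjusted p = 0.511).

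None of the 7 genes of deoxynucleotide supply passed. Without WT 2 there were 2 higher and 1 lower, where 26.8% of all genes were called higher and 25.3% lower. Dut had 14.4, 45.4 and 11.4 against 44.2, 51.4 and 72.6 FPKM (limma, adjusted p = 0.0983), and without WT 2 its log2 fold change was 2.02 (limma, adjusted p = 0.00133). Dctd, the dCMP deaminase, had 3.29, 1.85 and 3.99 against 0.756, 1.66 and 1.79 FPKM, and Guk1, the guanylate kinase, had 10.6, 32.1 and 12.4 against 6.35, 8.24 and 9.55 FPKM (limma, adjusted p = 0.138 and 0.170). Without WT 2 the log2 fold change of Dctd was -0.98 (limma, adjusted p = 0.0199).

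In salvage, 2 of 10 genes rose and 2 fell (3 and 4 without WT 2). The shares of all genes called were 13.1% and 13.3%, and 26.8% and 25.3% without WT 2. Uck2, a uridine-cytidine kinase, rose from 19.1 ± 1.34 to 66.7 ± 11.9 FPKM (SD, n = 3; log2 fold change 1.74, limma, adjusted p = 0.00324). Adk, the adenosine kinase, rose from 1.49 ± 0.521 to 6.12 ± 1.73 FPKM (limma, adjusted p = 0.0124). The genes that fell were Tk2 and Uckl1, the latter outside the rule for named genes.

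In breakdown and repair, 6 of 13 genes fell (46.2%, against 13.3% of all genes) and none rose, with a median log2 fold change of -1.25. Without WT 2 the counts were 6 lower and 3 higher, against 25.3% and 26.8% of all genes, and the median was -0.33. Xdh, the xanthine oxidoreductase that ends purine breakdown, had 33.5, 8.28 and 19.4 FPKM in the WT-labelled and 0.369, 0.256 and 0.393 in the KO-labelled libraries (log2 fold change -3.80, limma, adjusted p = 0.00239). Gda, the guanine deaminase, had 74.2, 18.0 and 15.7 against 0.333, 0.559 and 0.618 FPKM (log2 fold change -4.26, limma, adjusted p = 0.00328). Nt5e, the ectonucleotidase CD73, which makes adenosine outside the cell, had 12.3, 3.88 and 16.9 against 0.137, 0.103 and 0.144 FPKM (log2 fold change -3.22, limma, adjusted p = 0.00454). The other genes that fell, Ampd3, Upp1 and Nt5c3, were named after their values were seen. Most of the myeloid and NK cell markers above were lower in the same libraries, and their part in these differences was not tested. Dpyd, which degrades fluorouracil, was listed at 0 in all 6 libraries.

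For the last 2 lists too, the shares of all genes called higher and lower were 13.1% and 13.3%, and 26.8% and 25.3% without WT 2. Of 10 folate cycle genes, 2 rose and 2 fell (3 and 2 without WT 2), with a median log2 fold change of 0.32. Ggh, described above, was among those that fell, and Shmt1, a serine hydroxymethyltransferase outside the rule for named genes, was among those that rose. Of 7 genes of nucleoside transport and drug efflux, 3 rose and 2 fell, with and without WT 2. Besides Slc29a1, these were Slc29a3, an intracellular nucleoside transporter, from 5.32 ± 1.15 to 21.2 ± 1.43 FPKM (limma, adjusted p = 0.00258), and Abcc5, an efflux pump for nucleotide analogs, from 7.35 ± 3.61 to 22.3 ± 1.00 FPKM (limma, adjusted p = 0.0191). Abcc1, an efflux pump for methotrexate and other drugs, fell, with 4.37, 1.14 and 4.89 against 0.018, 0.029 and 0.062 FPKM (limma, adjusted p = 0.0134), and Slc29a2, outside the rule for named genes, was lower as well.

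Of the 16 pathway genes called and named here by the rule, 7 kept the call without any 1 library: Prps2, Uck2, Xdh, Gda, Nt5e, Ggh and Slc29a3. Adssl1 and Adk lost it without KO 2 or KO 3 (adjusted p at most 0.0515 and 0.0612). Gmps, Tk2, Abcc1 and Abcc5 lost it without KO 1, KO 2 or KO 3 (at most 0.0874, 0.0723, 0.0576 and 0.0814). Ctps lost it without WT 1, WT 3, KO 2 or KO 3 (at most 0.155) and Ctps2 without WT 3, KO 1, KO 2 or KO 3 (at most 0.104). Slc29a1 lost it without any library other than WT 2 (at most 0.123) and without a filter on low values. Under TPM, the calls of Tk2 and Ctps2 were also lost. For Adssl1, Abcc1 and the other pathway genes that fell, the part of the lower myeloid and NK cell markers was not tested.

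**Figure D4:**
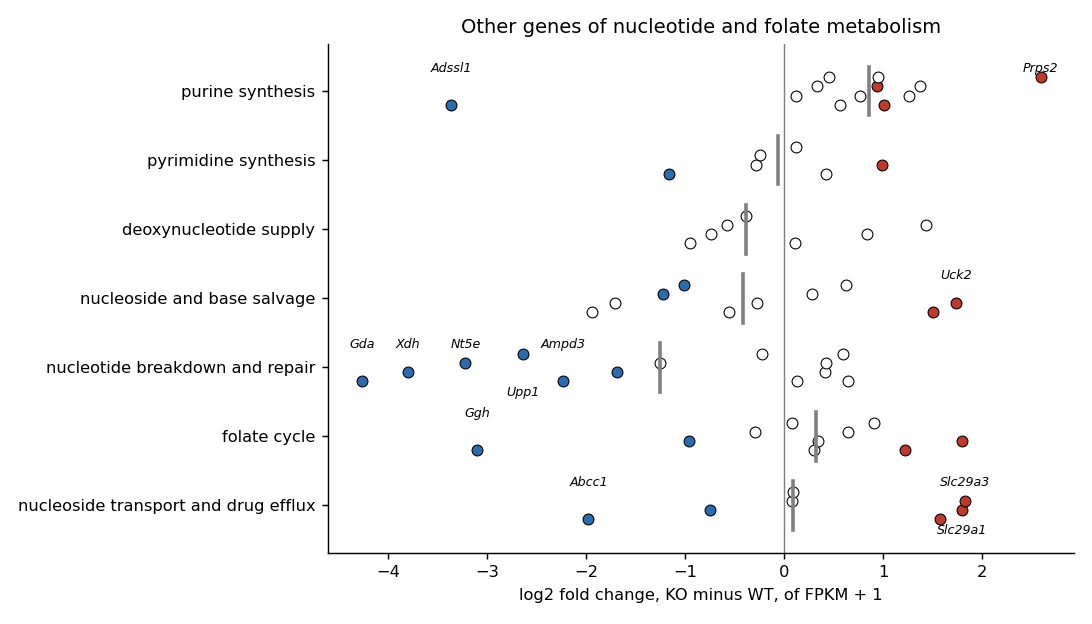
Log2 fold change, KO minus WT, of the 65 tested genes in 7 lists of nucleotide and folate metabolism, 1 circle a gene; filled circles have an adjusted p under 0.05 (red higher, blue lower, limma over 6 libraries), names mark some of the called genes that moved most, and the grey bar is the median of the list. Breakdown and repair holds 6 of the 14 genes that fell and none of the 11 that rose.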

How the data were processed

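RNA of 6 BM samples (3 WT-labelled, 3 KO-labelled) was sequenced by the authors as paired-end reads. The submitters' processing notes name HISAT2 (2.0.5), featureCounts (1.5.0-p3) and GRCm38; which annotation was used, and whether strand was, is not given in the sources used here. The authors deposited FPKM per gene and library, with gene length and coordinates, the latter equal to those of GENCODE M21 for 53462 of 54532 genes. The study's count model, DESeq2, was not used here, and log FPKM was tested instead. FPKM times length was a whole multiple of 1 step (tolerance 0.001 reads) in 100% of values, so reads were recovered and tested with limma's voom as an alternative; the size the authors divided by was 0.645 to 1.21 times the recovered total.

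Genes with FPKM of at least 1 in at least 3 libraries were tested by limma 3.58.1 (R 4.3.3) on log2(FPKM + 1), with lmFit and eBayes with a trend, two-sided. With 3 libraries a group, an exact permutation p cannot fall under 0.1, so single genes were judged by limma alone. The script was tested on simulated data. Promoter windows come from RefSeq (GRCm38.p6), where all 9 genes matched. Near-identical copies were searched by BLAST among GENCODE M21 transcripts (identity at least 95% over at least 400 bases). Python 3.11.15, pandas 2.3.3, NumPy 2.4.6 and Matplotlib 3.10.9 were used.

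The genes and lists were chosen with earlier results of these data known. Named are the 9 genes, Phf6, the 3 tested genes of each pathway list with the smallest p-values, fixed paralogs and partners, and the 3 genes nearest to each of the 9 by profile; other genes, marked in the text, were picked with their values in view. Genes were also judged under 20 other settings, of which the stricter threshold reused the main fit. Results for some genes under this rule are not reported here.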

Additional observations from a re-analysis of the deposited data

How the results depend on the processing

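Of 179 results of the 9 genes under other settings, 155 kept direction and side of the threshold, and 9 lost and 13 gained the call. The other 2 reversed: Impdh2 (0.35) and Fpgs (0.24), both under TPM and neither called in any setting. The 179 include the stricter threshold, which reused the main fit, and median-of-ratios scaling, which left the values unchanged. Fold changes under these settings could not differ from the main fit. TPM shifted the median of all genes by 0.77, which also reversed Dguok (0.21), Slc19a1 (0.44) and Phf6 (0.69). Phf6 ranged from -0.37 to 0.10 when each library was left out (0.055 without WT 1, 0.10 without WT 3). Rrm2b turned to -0.10 with the length trend removed and -0.055 with array weights (WT 2 weighted 0.051), and ranged from -0.095 without WT 2 to 0.22 when each library was left out.

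Of the 9 genes, 2 were higher; the count was 1 without a filter on low values, with the length trend removed, with a replicate block and at a threshold of 0.01, 6 under TPM and with array weights, and 1 to 6 when each library was left out, with 6 only without WT 2. The 1 gene lower was the same count in all 20. Of the 65 pathway genes, 11 were higher and 14 lower; TPM gave 18 and 8, array weights 25 higher, the threshold of 0.01 gave 3 and 5, a mean FPKM of at least 5 gave 8 lower, and leaving out each library 3 to 22 higher and 6 to 17 lower. Over all genes, 1754 were higher and 1785 lower; TPM gave 2932 and 1339, array weights 4388 and 4073, a mean FPKM of at least 5 gave 786 and 1051, the threshold of 0.01 gave 846 and 966, and leaving out each library 938 to 3584 and 996 to 3383. Without a filter on low values, which tests more genes, 1810 were higher and 1803 lower over all genes. The length trend removed gave 1961 and 1962, and the replicate block 1207 and 1469. The cause of these shifts was not tested. Median-of-ratios scaling left the deposited values as they were.

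Deviations from the group means correlated at 0.095, 0.10 and -0.15 over genes for equal replicate numbers, and at -0.20 to 0.23 for unequal ones. Deviations within a group depend on each other, so these values cannot show whether the replicate numbers pair the libraries. With the replicate block, 1 of the 9 genes was higher (Rrm1 had an adjusted p of 0.067), and of the pathway genes 6 were higher and 9 lower. That fit called 1207 of all genes higher and 1469 lower. At 27 to 75 reads, the KO-labelled level of Samhd1 has wide counting error, and Ggh with 2 to 5 reads is near the floor of 3 reads.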
